A study of Sus scrofa with 32 samples.

Results

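The genes described here are 10 components of the signalling systems of lysophosphatidic acid (LPA) and sphingosine-1-phosphate (S1P): the LPA receptors LPAR1, LPAR2, LPAR3, and LPAR6, the S1P receptors S1PR1, S1PR2, and S1PR3, and the enzymes ENPP2, SPHK1, and SGPL1. They were matched by pig gene symbol to the NCBI gene identifiers of the count tables, and all 10 were found among the 30185 counted genes. The set was drawn up by name and function, with earlier results of these data known.

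LPA and S1P are small signalling lipids that act on cells through families of G protein-coupled receptors. ENPP2 encodes autotaxin, the secreted enzyme that makes LPA from lysophosphatidylcholine, SPHK1 phosphorylates sphingosine to S1P, and SGPL1 is the lyase that degrades S1P irreversibly. In the uterus the system is known for LPAR3, whose loss in mice disturbs the timing of implantation and the spacing of embryos, and in blood vessels for S1PR1 in endothelium and for S1PR2 and S1PR3, which also act in smooth muscle.

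Endometrium of prepuberal gilts was collected on Day 14 and cut by laser capture microdissection into 4 compartments, the epithelium of the lumen (LE) and of the glands (GE), blood vessels (BV), and stroma (S). All gilts were synchronised with eCG followed by hCG; 4 pregnant gilts were inseminated with semen, and 4 cyclic gilts with semen supernatant of the same boar. Pregnant tissue came from the hyperemic zones where embryos attach, after the conceptus had been taken off, and captures followed the morphology of stained sections rather than an antibody. Each gilt gave 1 library per compartment, and the 31 libraries comprised 3 of pregnant GE, where PG41 was not analysed here, and 4 of every other group. Libraries are named as in the labels, by C or P for cyclic or pregnant, the letter of the compartment (L, G, B, or S), and the number of the gilt.

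Library totals ranged from 2415216 to 7081556 counts. Levels are CPM, counts scaled to a common library size, after TMM normalization of all libraries together. The captures were checked with marker lists. The summed level of 10 epithelial markers was 2445 to 3448 CPM in LE and 1679 to 2046 CPM in GE. In BV it was 3.39 to 53.4 CPM in cyclic and 173 to 344 CPM in pregnant libraries, without overlap. The summed level of 10 endothelial markers was 1619 to 3245 CPM in BV and 587 to 2988 CPM in S, with overlap. It was 142 to 1094 CPM in LE and 17.5 to 194 CPM in GE. The summed level of 9 fibroblast markers was 27791 to 95634.5 CPM in BV and 42129 to 111806 CPM in S, also with overlap. In LE it was 4403 to 18883 CPM, and in GE 3068 to 7855 CPM. RNA of fibroblast markers was thus present in every compartment. Of the markers looked for as conceptus RNA, IL1B2 had no count in any library. CYP19A3 had counts in pregnant but not cyclic GE, and IFNG in pregnant but not cyclic BV. Conversely, CYP19A3 had counts in cyclic but not pregnant LE and S, and ELF5 in cyclic but not pregnant GE. These markers could not show conceptus RNA to be absent. PB139 stood apart from the other pregnant BV libraries in several markers and in 2 of the genes below, where values without it are given.

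The 10 genes lie on 7 chromosomes of Sscrofa11.1. LPAR1 (gene 100512581) is at chr1:251811583-251979828, LPAR2 (100038015) at chr2:58296381-58300869, LPAR3 (100113360) at chr6:128860210-128937769, LPAR6 (100738399) at chr11:19216305-19220913, and ENPP2 (503658) at chr4:19319815-19433492. S1PR1 (100621202) is at chr4:117064632-117069724, S1PR2 (100511551) at chr2:69050396-69057270, S1PR3 (100154607) at chr14:659314-674969, SPHK1 (100519210) at chr12:5114946-5122580, and SGPL1 (100525187) at chr14:73696902-73781830. A strand setting of the counting was not given in the sources used here, so overlaps with genes on the opposite strand matter. S1PR3 shares 2531 exonic bases with SHC3, and SGPL1 shares 2485 with PCBD1. S1PR1 shares 199 exonic bases with the long non-coding RNA LOC110260372, which stayed at 0 to 0.754 CPM. LPAR6 lies wholly inside RB1 with 0 shared exonic bases.

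The promoters of LPAR3 and S1PR1 are shown because these 2 genes had the widest range of group mean levels among the 10, LPAR3 with its peak in LE and S1PR1 with its peak in BV. Each runs 5′ to 3′ on the gene's strand from 250 bases before to 50 bases after the annotated start, read from RefSeq's Sscrofa11.1 (chr6:128859960-128860259, plus strand, and chr4:117069675-117069974, minus strand). Capitals mark matches on either strand to a GC box (GGGCGG) in LPAR3 and to an AP-1 site (TGANTCA) in S1PR1.
LPAR3: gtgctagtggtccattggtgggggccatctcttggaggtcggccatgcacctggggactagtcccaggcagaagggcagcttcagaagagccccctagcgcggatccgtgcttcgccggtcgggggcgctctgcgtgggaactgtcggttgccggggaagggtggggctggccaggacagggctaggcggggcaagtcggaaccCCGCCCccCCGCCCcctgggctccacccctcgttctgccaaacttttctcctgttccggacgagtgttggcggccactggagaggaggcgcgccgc
S1PR1: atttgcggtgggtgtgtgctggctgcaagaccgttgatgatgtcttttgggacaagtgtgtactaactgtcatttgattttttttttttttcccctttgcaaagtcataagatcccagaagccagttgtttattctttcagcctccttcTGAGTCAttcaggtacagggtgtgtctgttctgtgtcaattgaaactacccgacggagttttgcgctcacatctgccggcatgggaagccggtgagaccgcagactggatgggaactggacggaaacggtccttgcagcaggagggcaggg
LPAR3 held 2 GC boxes and a GC content of 68.7%, against a median of 61.7% over 12810 promoters of this length. S1PR1 held 1 AP-1 match, no GC box, and a GC content of 49.3%. GC boxes were in 61.1% of all promoters and AP-1 matches in 4.81%. The letters of a TATA box (TATAAA) were in neither, although 8.13% of all promoters held them. These matches are descriptions of letters only.

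Between compartments the 10 genes had different profiles. By mean level, LPAR3 was highest in LE, LPAR1 and LPAR2 in GE, SGPL1 in both epithelia, ENPP2 and S1PR1 in BV, S1PR2 in BV and S, and LPAR6 in S. Contrasts averaged over both states were taken from 1 joint quasi-likelihood fit of edgeR with gilt as a block, and the threshold was a false discovery rate (FDR) of 1% over 13887 genes. Of the 10, 5 were called between LE and GE, where 41.4% of all genes were called, 6 between LE and BV (49.2% of all genes), and 6 between LE and S (50.6%). There were 9 between GE and BV (58.3%), 8 between GE and S (59.3%), and 2 between BV and S (7.19%). These shares lie near those of all genes for LE, and the differences below are given for their size and place. In such captures, fewer cells of a type and less RNA per cell cannot be told apart.

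**Figure D1:**
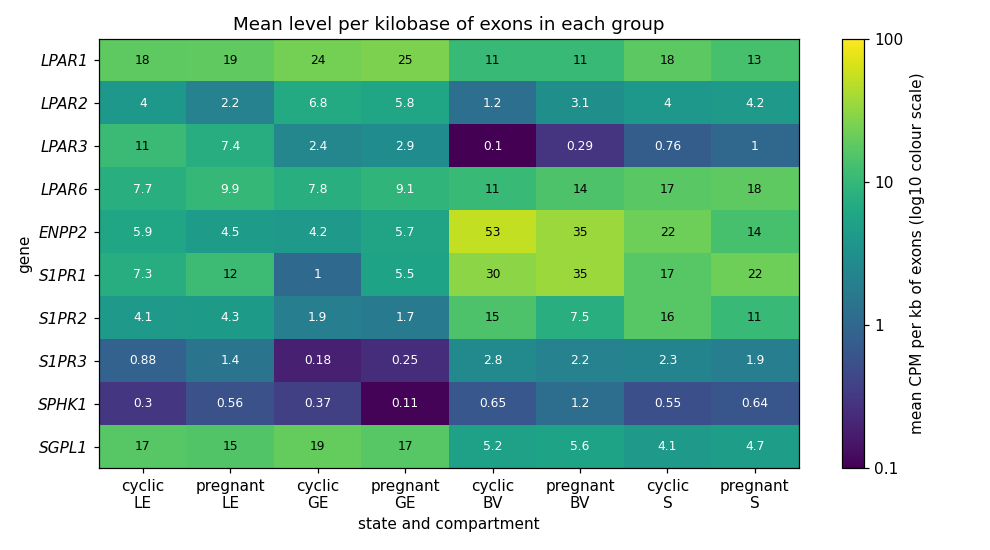
Mean level of each gene in each group, in CPM per kb of exons (number in each cell, log10 colour scale), for cyclic and pregnant gilts in LE, GE, BV, and S. ENPP2 and S1PR1 are brightest in BV, LPAR1 and SGPL1 in GE and LE, and LPAR3 in LE.

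Per kb of exons, the highest level of the 10 was that of ENPP2 in cyclic BV, at 53.0 CPM per kb. S1PR1 followed in BV at 30.3 CPM per kb in cyclic and 35.0 in pregnant gilts. In cyclic LE the order per kb was LPAR1 (18.2), SGPL1 (16.6), LPAR3 (11.09), LPAR6 (7.73), and S1PR1 (7.30), and in cyclic GE it was LPAR1 (23.5), SGPL1 (19.4), LPAR6 (7.80), and LPAR2 (6.84). SPHK1 did not exceed 1.22 CPM per kb in any group. The authors' filter on low counts kept 9 of the 10 for LE (without SPHK1), 7 for GE (without S1PR2, S1PR3, and SPHK1), 8 for BV (without LPAR2 and LPAR3), and 8 for S (without LPAR3 and SPHK1).

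Among the enzymes, ENPP2 was at 255, 193, 228, and 249 CPM in the cyclic BV libraries CB128, CB40, CB42, and CB78. It was at 43.3, 233, 160, and 176 CPM in the pregnant BV libraries PB139, PB39, PB41, and PB43. All but 1 of these 8 libraries lay above 150 CPM, and PB139 was far below. In S, ENPP2 ranged from 41.5 to 182 CPM in cyclic and from 34.4 to 86.6 CPM in pregnant gilts. In both epithelia it did not exceed 49.4 CPM. On the log2 scale the difference of BV from S was 1.39 (SE 0.32, adjusted p = 0.0057), that of LE from BV -3.13 (SE 0.35), and that of LE from S -1.74 (SE 0.33). The call between BV and S was lost without gilt 40, 42, 78, 39, 41, or 43 in turn.

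SGPL1, the S1P lyase, had the opposite profile. It was at 111 ± 14.4 CPM (SD, n = 4) in cyclic LE and 130 ± 18.1 CPM in cyclic GE, but at 34.7 ± 10.8 CPM in BV and 27.6 ± 3.87 CPM in S. All 15 epithelial libraries (79.4 to 156 CPM) lay above all 16 of BV and S (22.04 to 50.3 CPM). The log2 difference of LE was 1.57 from BV (SE 0.13) and 1.86 from S (SE 0.14), while LE and GE were not called (-0.19, SE 0.14, adjusted p = 0.26). PCBD1, whose exons overlap those of SGPL1, was at 41.1 ± 17.7 CPM in cyclic GE and 14.9 ± 4.42 CPM in cyclic BV, and its part in the SGPL1 counts was not tested. SPHK1, the kinase that makes S1P, was scarce throughout, with group means from 0.730 CPM in pregnant GE to 8.33 CPM in pregnant BV. It was lower in GE than in BV (log2 -2.28, SE 0.48) and than in S (log2 -1.72, SE 0.48). SPHK1 passed the filter in BV alone, where it was highest, so its entry into these contrasts was not independent of them. Both calls are among those counted above. Its GE level rests on 47 counts in cyclic gilts, 32 of them in CG128, and 10 in pregnant gilts.

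Among the LPA receptors LPAR1, LPAR2, LPAR3, and LPAR6, LPAR3 was the most restricted. It was at 30.3, 52.7, 26.7, and 22.2 CPM in CL128, CL40, CL42, and CL78, and at 24.8, 18.7, 17.5, and 27.1 CPM in PL139, PL39, PL41, and PL43. In GE it ranged from 3.22 to 11.9 CPM, in S from 0.363 to 4.89 CPM, and in BV from 0 to 1.89 CPM. Every LE library thus lay above every library of the other compartments. The log2 difference of LE was 1.77 from GE (SE 0.38, adjusted p = 5.7e-04), 3.35 from S (SE 0.40), and 5.61 from BV (SE 0.52). The BV level of LPAR3 rests on 4 counts in cyclic and 9 in pregnant gilts in all.

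LPAR1, the broadly expressed LPA receptor, averaged 116 ± 60.1 CPM in cyclic GE and 125 ± 29.4 CPM in pregnant GE (n = 3). CG128 and CG40 reached 185 and 147 CPM, and CG42 and CG78 had 66.0 and 65.6 CPM. LE averaged 90.0 ± 14.1 CPM in cyclic gilts, which did not differ from GE beyond the threshold (log2 -0.38, SE 0.21, adjusted p = 0.13), and BV 53.9 ± 18.7 CPM. LPAR2 was also highest in GE, at 17.02 ± 5.56 CPM in cyclic gilts against 9.85 ± 3.81 CPM in LE. For LPAR2 the log2 difference of LE from GE was -1.08 (SE 0.25, adjusted p = 0.0011). The log2 difference of BV from S was -1.05 (SE 0.26, adjusted p = 0.0096), a call that was lost without gilt 40, 42, 78, 39, 41, or 43 in turn or with RLE normalization. For GE against S neither LPAR1 (log2 0.63, SE 0.21, adjusted p = 0.0116) nor LPAR2 (log2 0.57, SE 0.25, adjusted p = 0.047) was called. LPAR6 had its highest level in S, at 79.2 ± 22.9 CPM in cyclic and 84.0 ± 17.1 CPM in pregnant gilts, with log2 differences of -1.14 (SE 0.24) for LE minus S and -1.10 (SE 0.25) for GE minus S. Between BV and S, LPAR6 was not called (log2 -0.57, SE 0.23, adjusted p = 0.11). RB1, on the strand opposite LPAR6, was at 61.0 ± 14.2 CPM in cyclic LE and 113 ± 12.4 CPM in cyclic BV, and its part in the LPAR6 counts was not tested.

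Among the S1P receptors S1PR1, S1PR2, and S1PR3, S1PR1 spanned the widest range. It was at 69.5, 93.0, 127.5, and 127.6 CPM in CB128, CB40, CB42, and CB78, and at 118, 127, 110, and 128.04 CPM in PB139, PB39, PB41, and PB43. S followed with 57.9 ± 34.6 CPM in cyclic and 74.8 ± 34.5 CPM in pregnant gilts. The log2 difference between BV and S was 0.73 (SE 0.32, adjusted p = 0.14), so these neighbours did not differ beyond the threshold. The log2 difference was -3.78 for GE minus BV (SE 0.40) and 1.92 for LE minus GE (SE 0.39). Within LE the S1PR1 level varied from 8.15 CPM in CL78 to 53.6 CPM in PL39. The summed endothelial markers were lowest and highest in the same libraries, at 142 and 1094 CPM. The part of endothelial RNA in the S1PR1 level of LE was not tested.

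S1PR2 was at 27.4 ± 9.73 CPM in cyclic BV and 30.7 ± 5.56 CPM in cyclic S, against 7.66 ± 3.45 CPM in LE and 3.55 ± 0.715 CPM in GE. The log2 difference was -2.89 for GE minus S (SE 0.23) and -1.70 for LE minus S (SE 0.20). Between BV and S it was not called (log2 -0.36, SE 0.19, adjusted p = 0.23). Of S1PR1, S1PR2, and S1PR3, S1PR3 was the least abundant per kb in every group. Its log2 difference was -3.37 for GE minus BV (SE 0.73) and -3.32 for GE minus S (SE 0.71). With 1 gilt left out in turn, these ranged from -3.98 to -2.24 and from -3.93 to -2.81. S1PR3 did not pass the filter in GE and rests there on 23 counts in cyclic and 20 in pregnant gilts. Its level in LE, 6.21 ± 3.18 CPM in cyclic gilts, is uncertain, because SHC3, whose exons overlap its own, was at 17.6 ± 7.69 CPM there and at 0.164 ± 0.110 CPM in cyclic GE.

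**Figure D2:**
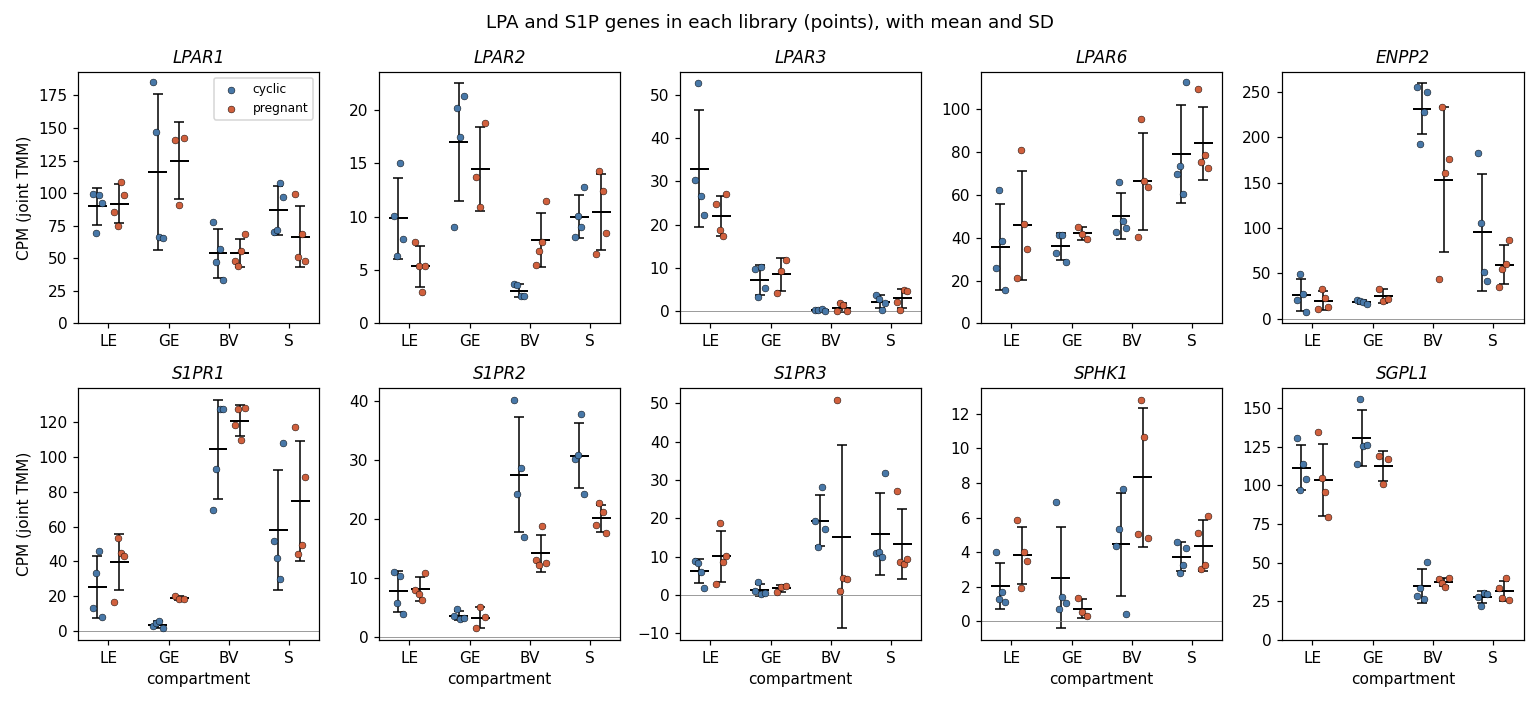
CPM of each of the 10 genes (1 panel each, own axis) in every library, with LE, GE, BV, and S on the x axis, cyclic gilts in blue, pregnant gilts in orange, and bars for mean and SD, which can reach below 0. LPAR3 stands high in LE alone, S1PR1 in GE separates pregnant from cyclic gilts, and 1 pregnant BV library lies apart for S1PR3 and ENPP2.

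Pregnant and cyclic gilts on Day 14 were compared within each compartment. The groups differed in the presence of conceptuses, in insemination with semen or its supernatant, and in sampling from hyperemic zones. These cannot be told apart here. The threshold was an FDR of 1% in LE. For the other compartments it was the unadjusted p that corresponds to this FDR in edgeR's quasi-likelihood test, 0.000328. With edgeR's quasi-likelihood test, 0 of the 9 genes tested were called in LE, where 3.32% of all genes were called, 0 of 7 in GE (0.748% of all genes), 0 of 8 in BV (1.86%), and 0 of 8 in S (0.293%). Unadjusted p-values under 0.05 were found for 0, 1, 1, and 1 genes in this order, against 26.9%, 23%, 28.5%, and 14.5% of all genes. The robust GLM of edgeR called 0, 1, 1, and 0 of them, against 11.8%, 6.66%, 11%, and 3.16% of all genes, and DESeq2 called 0, 1, 0, and 0, against 11.2%, 6.64%, 8.5%, and 2.6%. The groups did not overlap for 0, 1, 0, and 1 genes, where 19.4%, 22.8%, 18.3%, and 8.81% of all genes did not overlap. The median log2 difference of the genes tested was 0.04, 0.22, 0.07, and -0.10 in this order, beside medians of all genes within 0.01 of 0. S1PR1 in GE, S1PR2 in BV and S, and S1PR3 in BV are the genes behind these counts.

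**Figure D3:**
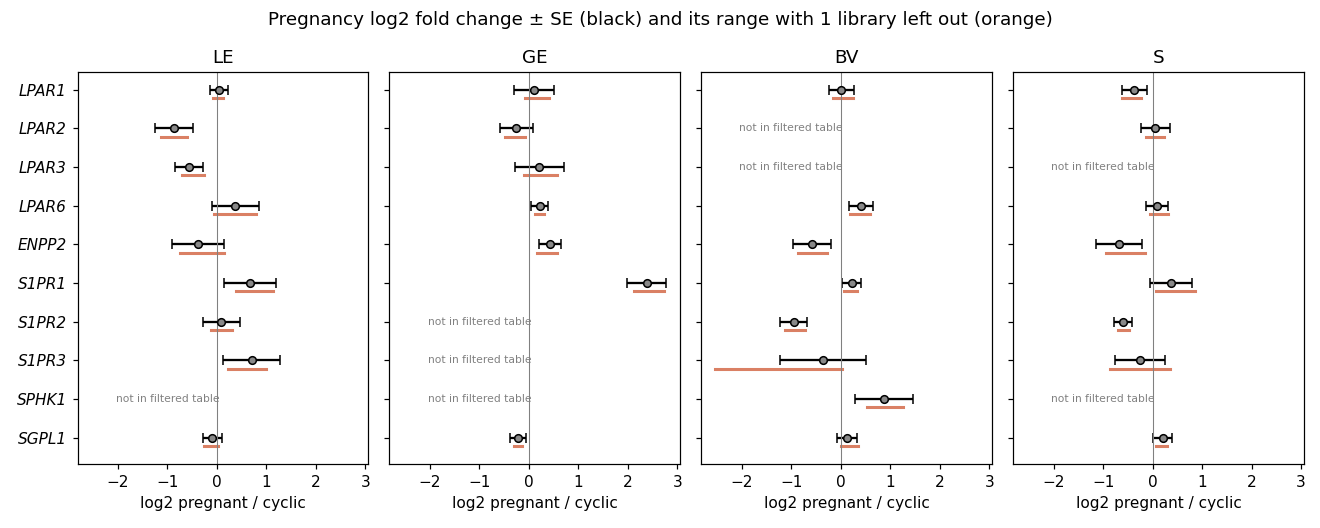
Log2 fold change of pregnant against cyclic gilts for each gene in LE, GE, BV, and S (points, with SE as black bars), and the range of the estimate with 1 library left out in turn (orange lines). S1PR1 in GE lies at 2.38 and stays above 2 in every leave-out, while S1PR3 in BV runs from -2.55 to 0.027.

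The largest difference was that of S1PR1 in GE, which did not pass the threshold of the quasi-likelihood test. It was at 2.79, 4.36, 5.84, and 1.48 CPM in CG128, CG40, CG42, and CG78, and at 20.4, 18.5, and 18.5 CPM in PG139, PG39, and PG43. Every pregnant library lay above every cyclic one, and the pregnant libraries differed little among themselves. The means were 3.62 ± 1.89 CPM (SD, n = 4) and 19.1 ± 1.08 CPM (n = 3), resting on 68 and 237 counts. The log2 fold change was 2.38 (SE 0.40), with an unadjusted p of 0.00034 in edgeR's quasi-likelihood fit, just above the limit for a call, and an adjusted p of 0.0434. At an FDR of 5% it was 1 of 7, where 1.86% of all genes passed. The robust GLM (adjusted p = 2.1e-07) and DESeq2 (adjusted p = 7.9e-06) called it. Without any 1 library the log2 fold change was 2.12 to 2.74, and without CG42 or CG78 it passed the limit.

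Some markers of other cells were also higher in GE of pregnant gilts. The summed level of 10 leukocyte markers ranged from 29.8 to 47.9 CPM in GE of cyclic and from 101 to 140 CPM in GE of pregnant gilts, without overlap. Of the 5 leukocyte markers tested there, PTPRC, CSF1R, CD14, and LAPTM5 were higher at an unadjusted p under 0.05, and CD163 was not. CD14 gave much of the sum, with 71.2 of 120 CPM in PG43. In pregnant gilts its mean was higher in GE (48.4 CPM) than in BV (14.1 CPM) or S (8.25 CPM). The mean of PTPRC was lower in GE (19.8 CPM) than in BV (85.4 CPM) or S (105 CPM). The sum therefore need not follow leukocytes alone. CD3E, a defining marker of T cells, had 0 to 4 counts in every GE library. The summed level of 10 endothelial markers was 17.5 to 49.0 CPM in cyclic GE and 194, 20.9, and 65.2 CPM in PG139, PG39, and PG43. Of the 5 endothelial markers tested there, 1 was higher at an unadjusted p under 0.05, and their median log2 fold change was 1.07. The part of leukocyte and endothelial RNA in the S1PR1 difference was not tested.

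**Figure D4:**
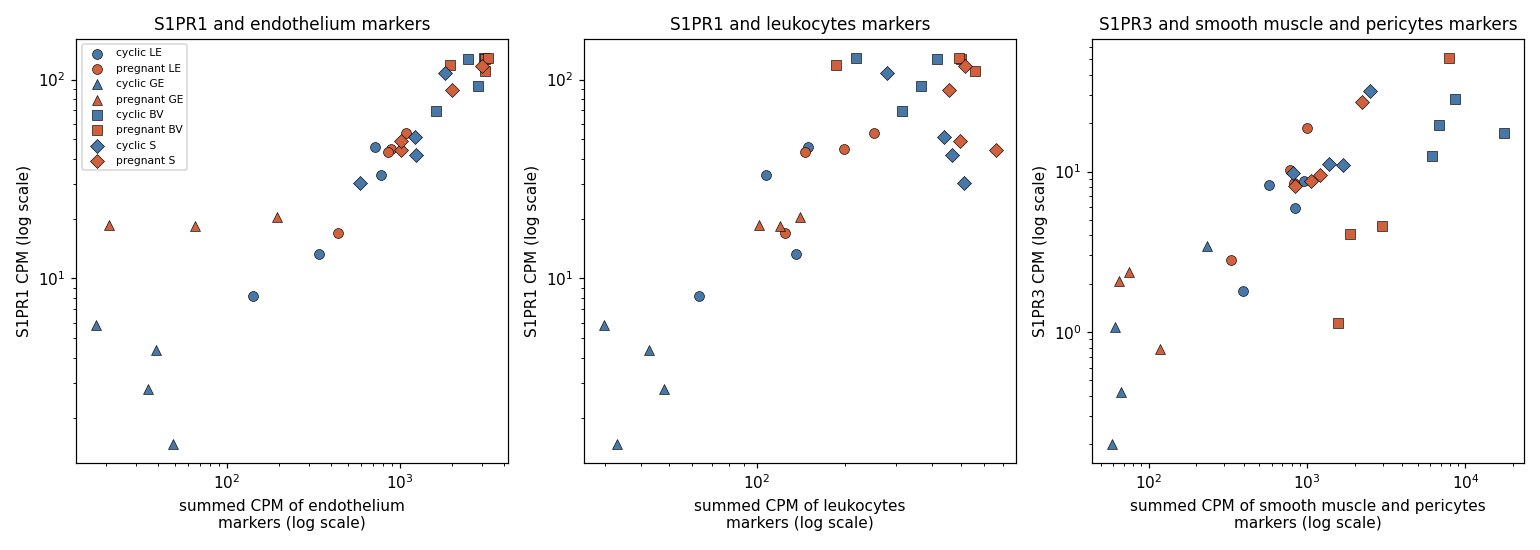
S1PR1 against summed endothelial markers (left) and summed leukocyte markers (middle), and S1PR3 against summed smooth muscle and pericyte markers (right), in CPM on log scales, 1 point per library, with symbols for compartment and colours for state. The 3 pregnant GE libraries lie at 18.5 to 20.4 CPM of S1PR1 and 101 to 140 CPM of leukocyte markers, both above all cyclic GE libraries.

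S1PR2 had lower means in BV and S of pregnant gilts, and neither difference was called. In BV it was at 40.1, 24.1, 28.5, and 16.9 CPM in CB128, CB40, CB42, and CB78, and at 13.0, 12.1, 18.7, and 12.5 CPM in PB139, PB39, PB41, and PB43. PB41 lay above CB78, and no other libraries of the groups overlapped. The log2 fold change was -0.95 (SE 0.28, adjusted p = 0.0609 by the quasi-likelihood test), and it stayed between -1.12 and -0.71 with 1 library left out. In S it was at 30.2, 30.7, 37.7, and 24.2 CPM in CS128, CS40, CS42, and CS78, and at 18.8, 22.6, 21.2, and 17.6 CPM in PS139, PS39, PS41, and PS43. The groups did not overlap, with a log2 fold change of -0.60 (SE 0.18, adjusted p = 0.197 by the quasi-likelihood test). In LE S1PR2 was at 7.66 ± 3.45 and 8.04 ± 2.01 CPM. Smooth muscle and pericyte markers were also lower in pregnant BV, with 5 of the 10 at an unadjusted p under 0.05, 1 higher, and a median log2 fold change of -1.21. In S 4 of them were lower and 1 was higher at that p, with a median of -0.49. CB78, with the lowest S1PR2 of cyclic BV, had the highest smooth muscle and pericyte sum in BV, at 17472 CPM. Fibroblast markers had a median log2 fold change of -0.19 in BV and -0.05 in S. In each, 1 of the 9 was lower and 0 were higher at that p. Their sum in BV was 95634.5 CPM in CB128 and 79866 CPM in PB41, the libraries with the highest S1PR2 of their groups. It was 27791 CPM in CB78. The part of either list in the S1PR2 difference was not tested.

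S1PR3 in BV depended on 1 library. It was at 19.4, 12.52, 28.3, and 17.3 CPM in CB128, CB40, CB42, and CB78, and at 50.9, 1.13, 4.57, and 4.06 CPM in PB139, PB39, PB41, and PB43. All pregnant libraries but PB139 lay below all cyclic ones, and PB139 lay above them. With all libraries the log2 fold change was -0.36 (SE 0.87, adjusted p = 0.81 by the quasi-likelihood test), and without PB139 it was -2.55 (adjusted p = 0.0152), which passed the limit for a call. The robust GLM called it with all libraries (log2 -2.16, adjusted p = 2.0e-04). The summed smooth muscle and pericyte markers of BV were 7814 CPM in PB139 and 1564, 2975, and 1855 CPM in PB39, PB41, and PB43, against 6163 to 17472 CPM in cyclic gilts, and their part in the S1PR3 difference was not tested. In S, S1PR3 was at 31.8 CPM in CS78 and 27.0 CPM in PS139, and at 8.15 to 11.2 CPM in all others. These 2 libraries also had the highest sums of these markers in S, at 2492 and 2213 CPM. Their sums of fibroblast markers were the lowest in S, at 42129 and 44605 CPM. PB139 had the lowest fibroblast sum of pregnant BV, at 32888 CPM. The part of fibroblasts was not tested.

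LPAR3 in LE was at 33.0 ± 13.5 CPM in cyclic and 22.03 ± 4.66 CPM in pregnant gilts. Its log2 fold change was -0.57 (SE 0.29, adjusted p = 0.24 by the quasi-likelihood test). Without CL40, the highest library, it was -0.25. LPAR2 in LE was at 9.85 ± 3.81 and 5.37 ± 1.91 CPM, with a log2 fold change of -0.86 (SE 0.39, adjusted p = 0.19). In BV LPAR2 was at 3.68, 3.58, 2.54, and 2.54 CPM in CB128, CB40, CB42, and CB78, and at 5.47, 6.79, 7.62, and 11.4 CPM in PB139, PB39, PB41, and PB43. These groups did not overlap, but the gene was not in the filtered table of BV, and a fit without the filter gave a log2 fold change of 1.32 (SE 0.38) with an adjusted p of 0.0714. The summed epithelial markers of BV were also higher in pregnant libraries, at 173 to 344 CPM against 3.39 to 53.4 CPM in cyclic ones. Among pregnant BV libraries, PB139 had the highest sum and the lowest LPAR2. The part of epithelial RNA in the LPAR2 difference was not tested.

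None of the remaining differences was called. ENPP2 had log2 fold changes of -0.38 (SE 0.54) in LE, 0.42 (SE 0.22) in GE, -0.59 (SE 0.39) in BV, and -0.68 (SE 0.46) in S, and in BV it was -0.27 without PB139. LPAR1 lay between -0.37 in S and 0.10 in GE, LPAR6 between 0.09 in S and 0.41 in BV, and SGPL1 between -0.22 in GE and 0.20 in S. S1PR1 was at 25.2 ± 17.6 and 39.7 ± 15.9 CPM in LE, with a log2 fold change of 0.67 (SE 0.52, adjusted p = 0.45), and at 0.22 (SE 0.19) in BV. SPHK1 was tested only in BV, where it was at 4.44 ± 3.01 and 8.33 ± 4.04 CPM with a log2 fold change of 0.87 (SE 0.58, adjusted p = 0.36).

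Whether the difference between pregnant and cyclic gilts itself varied among the 4 compartments was tested in the joint fit. None of the 10 genes was called, 0 where 1.94% of all genes were called, and 2 had an unadjusted p under 0.05 in edgeR's quasi-likelihood test, LPAR2 (adjusted p = 0.062) and S1PR1 (adjusted p = 0.19), where 22.5% of all genes had such a p. DESeq2 also called none and gave LPAR2 an adjusted p of 0.0225. No gene was called for LE minus GE, LE minus BV, or LE minus S, where 1.02%, 2.3%, and 0.85% of all genes were called. LPAR2 had the log2 difference of differences of -2.18 for LE minus BV (SE 0.53, adjusted p = 0.0163). For S1PR1, LE minus GE was -1.63 (SE 0.75, adjusted p = 0.28), so its difference in GE was not shown to exceed that in LE.

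Genes with a profile like those of the 4 members with the widest range were sought by Pearson's r of log2 CPM over the 31 libraries. For LPAR3 they were CDRT1 (r = 0.94), TFCP2L1 (0.93), and FDFT1 (0.91). For S1PR1 they included ACVRL1 (0.94), a receptor of endothelial cells, and ELK3 (0.94). For S1PR3 they were RGS5 (0.90), a pericyte marker, PARVB (0.88), and COL27A1 (0.87), and for ENPP2 IL13RA1 (0.91), SGCD (0.90), and PAPLN (0.90). These are descriptions over libraries that share gilts and compartments, with most of the range between compartments.

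Other genes of both pathways were described from lists. Of the genes that make and break down LPA, the tables of LE, GE, BV, and S held 13, 11, 11, and 10. AGPAT5, which acylates LPA to phosphatidic acid, rose in LE from 73.0 ± 14.1 to 269 ± 98.4 CPM (log2 1.89, SE 0.28, adjusted p = 0.0046) and was the only one of the 13 called in LE by the quasi-likelihood test, against 3.32% of all genes. At an unadjusted p under 0.05, 1 was higher and 2 were lower there, GDPD3 and PLA2G4A. GDPD3, an enzyme that can release LPA, was named after its values were seen, was at 15.7 ± 7.85 and 3.93 ± 2.46 CPM (log2 -1.98, SE 0.58, adjusted p = 0.0602), and was called by the robust GLM beside AGPAT5. In GE, BV, and S the quasi-likelihood test called 0 of them, with 2, 3, and 0 higher and 0 lower at an unadjusted p under 0.05, and the robust GLM called 0, 1, and 0. Among all genes of LE, GE, BV, and S, 26.9%, 23%, 28.5%, and 14.5% had such a p. The quasi-likelihood test called 3.32%, 0.748%, 1.86%, and 0.293% of all genes, and the robust GLM 11.8%, 6.66%, 11%, and 3.16%. PLA2G4A was at 250 ± 81.1 and 131 ± 49.1 CPM in LE, and PLPP3, a phosphatase that removes LPA, at 589 ± 358 and 713 ± 282 CPM in S. Of the other LPA receptors, only LPAR5 passed the filter, in LE alone, at 15.2 ± 5.43 and 24.8 ± 5.89 CPM (log2 0.72, SE 0.29, adjusted p = 0.14). Of the other S1P receptors, only S1PR5 passed, in BV (8.68 ± 3.29 and 6.74 ± 3.19 CPM) and S.

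Of the genes that make, break down, and transport S1P, 6 were tested in LE and 5 in each other compartment, and the quasi-likelihood test called 0. At an unadjusted p under 0.05, 2 were higher and 2 lower in LE, 1 higher and 1 lower in GE, 3 higher in BV, and 0 in S, and the robust GLM called 2, 1, 1, and 0. Such a p was found for 26.9%, 23%, 28.5%, and 14.5% of all genes in this order. The quasi-likelihood test called 3.32%, 0.748%, 1.86%, and 0.293% of all genes, and the robust GLM 11.8%, 6.66%, 11%, and 3.16%. The S1P phosphatase SGPP1 was at 221 ± 95.5 CPM in GE of cyclic and 61.3 ± 21.9 CPM in GE of pregnant gilts (log2 -1.85, SE 0.39, adjusted p = 0.0566), without overlap. SGPP2, its paralog, was at 102 ± 54.0 and 29.5 ± 9.25 CPM in LE (log2 -1.78, SE 0.51, adjusted p = 0.0568). The robust GLM called both. In GE the groups did not overlap for 22.8% of all genes.

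Of the genes that supply ceramide and sphingosine, these tables held 21, 19, 16, and 19. SMPD4, a sphingomyelinase, rose in LE from 22.6 ± 5.96 to 55.3 ± 9.01 CPM (log2 1.31, SE 0.22, adjusted p = 0.0078) and was the only one called in LE by the quasi-likelihood test. At an unadjusted p under 0.05, 3 were higher and 4 lower there, and the robust GLM called 1 higher and 2 lower. The 2 lower ones, named after their values were seen, were SMPD3, a sphingomyelinase (log2 -2.62, SE 0.59, adjusted p = 0.0231), and SGMS2, a sphingomyelin synthase (log2 -1.40, SE 0.26, adjusted p = 0.0105). In GE, BV, and S the quasi-likelihood test called 0, with 2, 3, and 2 higher and 1 lower in each at an unadjusted p under 0.05, and the robust GLM called 1 in each. Among all genes of LE, GE, BV, and S, 26.9%, 23%, 28.5%, and 14.5% had such a p. The quasi-likelihood test called 3.32%, 0.748%, 1.86%, and 0.293% of all genes, and the robust GLM 11.8%, 6.66%, 11%, and 3.16%. ASAH1, the acid ceramidase that frees sphingosine, was at 276 ± 161 CPM in GE of cyclic and 1238 ± 565 CPM in GE of pregnant gilts (log2 2.14, SE 0.52, adjusted p = 0.0751), without overlap, and at 3286 ± 1108 and 3760 ± 831 CPM in LE. The robust GLM called it in GE, BV, and S. Of all genes in GE, 22.8% did not overlap between the groups.

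All 13 genes of G proteins and the RhoA pathway were tested in each compartment, and the quasi-likelihood test called 0. At an unadjusted p under 0.05, 2 were higher and 2 lower in LE and in GE, 3 lower in BV, and 0 in S, and the robust GLM called 1, 1, 0, and 0. RHOA itself was at 480 ± 33.2 and 443 ± 45.1 CPM in LE. Of the genes that cultured cells induce on LPA or S1P, the tables held 8, 5, 7, and 8, and the quasi-likelihood test called 0. At an unadjusted p under 0.05, 1 was higher and 1 lower in LE, 0 in GE, 1 higher and 2 lower in BV, and 1 lower in S, and the robust GLM called 2, 0, 1, and 2. The most abundant of them, CTGF, was at 1899 ± 1201 and 2569 ± 1077 CPM in GE (log2 0.42, SE 0.81, adjusted p = 0.80). Beside both lists, 26.9%, 23%, 28.5%, and 14.5% of all genes had a p under 0.05 in this order. The quasi-likelihood test called 3.32%, 0.748%, 1.86%, and 0.293% of all genes, and the robust GLM 11.8%, 6.66%, 11%, and 3.16%.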

How the data were processed

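The authors used Trim Galore for trimming, Hisat2 for mapping to Sscrofa11.1, nudup of NuGEN against PCR duplicates, and QuasR qCount for counting by NCBI gene. Versions are not given in the sources used here. The deposited values are whole-number counts without normalization, in a full and a CPM-filtered table for each compartment, and the value of the CPM filter is not given. The submitters' processing notes name edgeR.

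Pregnant and cyclic libraries were compared on the filtered counts with TMM normalization and the quasi-likelihood test of edgeR 4.0.16 in R 4.3.3, with Benjamini-Hochberg adjustment over all genes of the table. Genes were called by the form of rule in the study's methods (an FDR of 1% in LE and the corresponding p elsewhere). The p limit of 0.000328 came from the quasi-likelihood test here and is stricter than the study's own limit. The study's own test, edgeR's robust GLM, and DESeq2 1.42.0 were alternatives. Levels and compartment contrasts used all 31 libraries, 13887 genes, and the gilt as a block, since each gilt gave every compartment. The fit was tested on simulated data. Precision rests on library totals of 2415216 to 7081556 counts, with duplicates removed.

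The members, lists, and tests were chosen with earlier results of these data known. All 10 members are named in each compartment, pathway genes where called or most abundant in their list, and genes of like pattern by the 3 highest r, of which 1 is not reported here. SGPP2 and LPAR5 are the most abundant of their lists in LE. PAG1 and PAG2 were listed as trophoblast markers but matched by symbol and synonym only, so their values are not reported. CCN1 and CERT1 were matched by older symbols after the tables were seen. Gene symbols, positions, and exons are from the NCBI annotation of Sscrofa11.1. Complete endometrium and PG41 were not analysed here. The replicates are separate gilts.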

Additional observations from a re-analysis of the deposited data

Results flagged for a closer look

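A library apart from the others of its group was looked for in 57 groups of 4 libraries (genes that passed the filter, in every group but pregnant GE), and 4 were found. The nominal rate of such flags by chance is about 1 in 20, which was not checked for these counts. S1PR3 in pregnant BV was at 50.9 CPM in PB139, and the next library was at 4.57 CPM. S1PR3 in S was at 31.8 CPM in CS78, next to 11.2 CPM, and at 27.0 CPM in PS139, next to 9.48 CPM. S1PR2 in pregnant BV was at 18.7 CPM in PB41, next to 13.0 CPM. The 3 libraries with high S1PR3 had the highest summed smooth muscle and pericyte markers of their group. They also had the lowest summed fibroblast markers of their group. CS78 and PS139 had the highest endothelial sums of their groups, at 1817 and 2988 CPM, and PB139 the lowest, at 1944 CPM. The sum of 4 lymphatic endothelial markers was 359 CPM in PB139 and 27.7 to 49.4 CPM in the other pregnant BV libraries. The part of all these cells was not tested.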

How the results depend on the processing

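In GE, 1 gene (S1PR1) in place of 0 was called with DESeq2, the robust GLM, no filter, or a false discovery rate of 5%, and 0 to 1 with 1 library left out. In BV, 1 gene (S1PR3) was called with the robust GLM, and 0 to 1 with 1 library left out. With the 9727 genes present in all 4 filtered tables, which keep 5 of the 10 genes, 1 was called for LE against GE (38% of all genes), 4 for GE against BV (55.1%), 5 for GE against S (56.1%), and 1 for BV against S (7.01%). With RLE normalization, 1 was called for BV against S (7.17% of all genes), and 0 to 2 with 1 gilt left out.

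Without the gilt as a block, 5, 6, 6, 9, 9, and 3 genes were called for LE against GE, BV, and S, GE against BV and S, and BV against S, where 40.1%, 47.5%, 48.5%, 56.9%, 57.5%, and 5.94% of all genes were called, and 0 for the interaction (1.4%). Without the block, the log2 difference of LE minus GE turned to 0.055 for LPAR6 and 0.074 for ENPP2. No paired analysis was possible because pregnant and cyclic gilts share no numbers, for comparisons within a compartment.

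LPAR1 in BV turned to -0.0104 without the filter. With 1 library left out, these uncalled log2 fold changes crossed 0: in LE, LPAR1 (-0.070 to 0.12), LPAR6 (-0.048 to 0.79), ENPP2 (-0.74 to 0.14), S1PR2 (-0.12 to 0.30), and SGPL1 (-0.26 to 0.0138). In GE they were LPAR1 (-0.085 to 0.41) and LPAR3 (-0.10 to 0.56), in BV LPAR1 (-0.15 to 0.24) and S1PR3 (-2.55 to 0.027), and in S LPAR2 (-0.13 to 0.23), LPAR6 (-0.059 to 0.31), and S1PR3 (-0.87 to 0.34). So did LE minus GE for LPAR6 (-0.26 to 0.12) and ENPP2 (-0.44 to 0.24), and S1PR3 for LE minus BV (-1.21 to 0.12) and BV minus S (-0.57 to 0.37). The cause was not tested. Depth limits genes with few counts, such as LPAR3 in BV with 4 and 9 counts in all.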
